A study of Mus musculus with 6 samples.

Results

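Macrophages are set up and kept by a small group of transcription factors, and 9 of them are described here: Spi1, Cebpa, Cebpb, Maf, Runx1, Klf4, Zeb2, Bhlhe40 and Bhlhe41. The members were chosen by gene symbol, and each symbol matched 1 of the 55487 gene rows of the table. All 9 were among the 14478 genes that had enough counts to be tested. Bone marrow of female wild-type mice (BALB/c, 6 to 12 weeks old) was differentiated into macrophages over 8 days in medium with 20% L929-conditioned medium. The M2 state was then induced over 24 hours by IL-4 plus IL-13, each at 10 ng/mL. Both groups share this background: 3 libraries came from cells exposed for a further 24 hours to nanoparticles of poly(lactide-co-glycolide), at 200 µg/mL (NP), and 3 from cells given PBS as the vehicle. The treatment label of the NP samples, PEMA, is not explained in the labels. The comparison asks which genes differ after particle exposure of M2 macrophages. The labels do not say whether libraries of a group came from separate animals or cultures, and the p-values then rest on a spread among libraries that may be purely technical.

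PU.1, the protein of Spi1, is an ETS factor that opens the enhancers of the macrophage lineage. It works there with RUNX1 and with the C/EBP factors, which carry progenitors into the myeloid lineage and drive inducible genes in mature cells. c-Maf, the protein of Maf, is a bZIP factor that restrains the self-renewal of macrophages and drives Il10, Klf4 cooperates with STAT6 in the response to IL-4, and Zeb2 is a zinc finger repressor that keeps macrophages in their tissue identity. Bhlhe40 and Bhlhe41 are related basic helix-loop-helix repressors that bind the E-box CACGTG, act in the circadian clock, and in tissue macrophages restrain genes of other lineages and support proliferation.

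In NP cells Bhlhe41 and Cebpa rose, Maf, Klf4 and Runx1 fell, and Spi1, Cebpb, Zeb2 and Bhlhe40 did not pass the test (limma voom, p adjusted over all tested genes, threshold 0.05). The changes were moderate, and 0 of the 9 reached 2-fold. The log2 fold change (NP minus PBS) was 0.75 for Bhlhe41 (SE 0.04) and -0.76 for Maf (SE 0.09), so that the ratio of Bhlhe41 to Maf went from 2.26 ± 0.130 to 6.49 ± 1.17 (SD, n = 3 each). Of all tested genes 41.2% passed, with 19.8% higher and 21.4% lower in NP. Among genes with a mean of at least 50 CPM (counts scaled to a library size of 1e+06), a level that all 9 members exceed, 55.4% passed, and 5 of 9 members (55.6%) is close to that background. The share of factors that changed is therefore not a result about them, and what follows describes which changed, by how much and beside which other genes. The median log2 fold change was -0.036 over the members and -0.0035 over all tested genes.

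Total counts ran from 41974957 to 69450411 per library, and each NP library was deeper than each PBS library. The members had 3124 to 53977 counts in any library. On the first principal component, with 85.9% of the variance over 9928 genes, NP 2 lay at 9.05, nearer to the PBS libraries than NP 1 (19.6) and NP 3 (15.5). Chemosensory receptor genes (olfactory plus vomeronasal), which macrophages are not known for, summed to 136 CPM in PBS 2 and 150.4 CPM in PBS 3 but only to 9.62 to 12.4 CPM elsewhere. B cell markers summed to 1.91 and 1.41 CPM in these libraries and to at most 0.148 CPM in the others, and T or NK cell markers to 1.62 and 1.14 CPM against at most 0.0178 CPM. The macrophage label held: all 8 macrophage markers were above 1 CPM, summing to 11955 to 12359 CPM in PBS and 9395 to 10532 CPM in NP. Most of the sum was Lyz2, named after its values were seen, with means of 8330 CPM in PBS and 6738 CPM in NP. Of these 8 markers 6 fell and 1 rose. That is 87.5% called, against 41.2% of all tested genes and 55.4% of those with a mean of at least 50 CPM. Low sums were also seen for neutrophil markers, at 2.02 to 2.28 CPM over all libraries (Ly6g and Camp at 0), mast cell or basophil markers, at most 0.5003 CPM, and erythroid markers, at most 0.255 CPM. Fibroblast markers summed to 2.64 to 3.38 CPM in PBS and 2.24 to 2.75 CPM in NP, dendritic cell markers to 1.76 to 4.10 and 2.64 to 3.12 CPM, and osteoclast markers to 117 to 122 and 106 to 121 CPM. Markers of dividing cells fell in all 6 tested genes, from sums of 1129 to 1180 CPM in PBS to 425 to 628 CPM in NP, highest among the NP libraries in NP 2. The part of these differences in the results below was not tested. In bulk samples fewer cells that express a gene and less RNA per cell cannot be told apart.

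**Figure D1:**
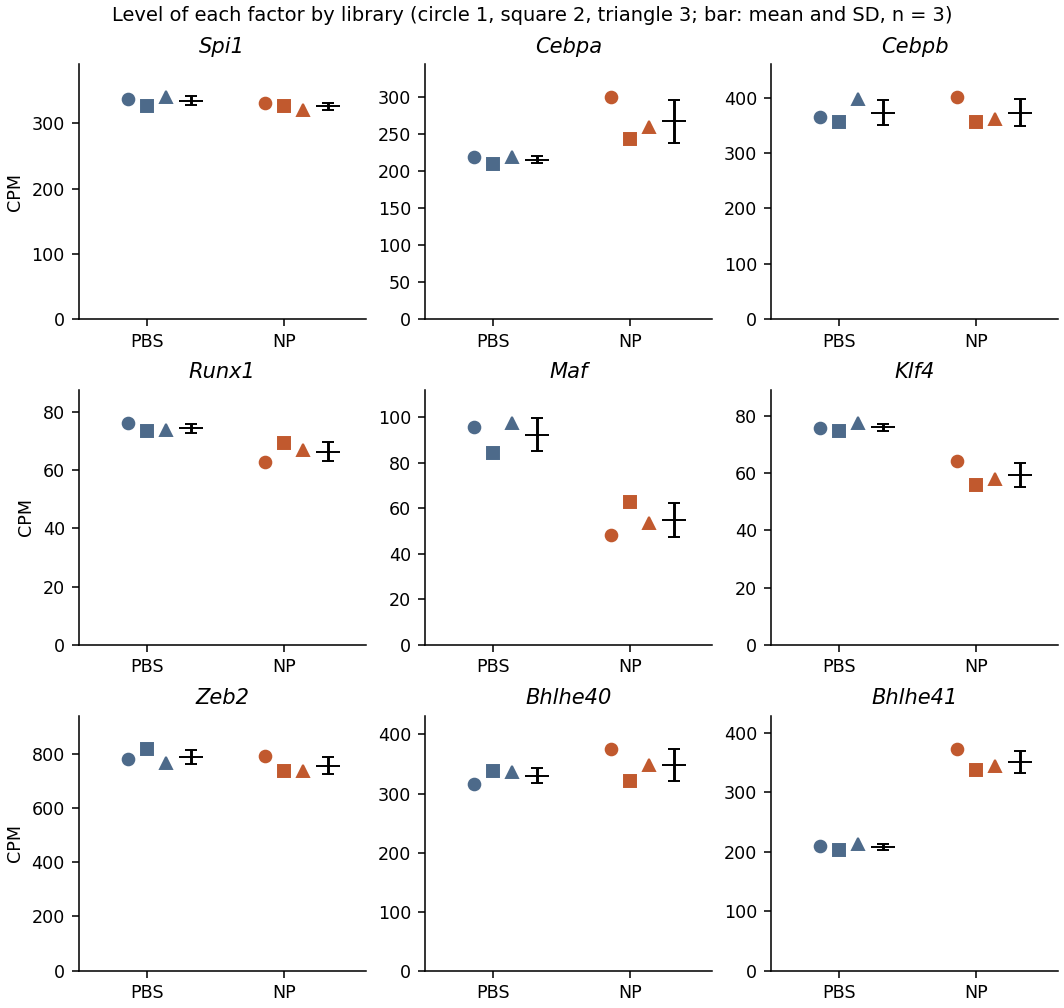
Level of each of the 9 factors in CPM in the 3 PBS and 3 NP libraries, on axes that start at 0. Symbols mark the replicate number and the bar the mean with its SD. The NP libraries lie above all PBS libraries for Cebpa and Bhlhe41, below them for Runx1, Maf and Klf4, and overlap with them for the other 4. Groups did not overlap for 53.3% of all tested genes.

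Short stretches of 3 promoters are shown because they hold the E-box that Bhlhe40 and Bhlhe41 bind, and because these 3 genes changed. The RefSeq promoter table (GRCm38.p6), with 250 bases before and 50 after each start, had 10 windows for 6 of the members: Cebpa, Cebpb, Klf4, Bhlhe41, Runx1 with 2 and Zeb2 with 4. Spi1, Maf and Bhlhe40 are not in that table. The E-box CACGTG (in capitals, a palindrome, so both strands read the same) was in 1 window each of Bhlhe41, Klf4 and Runx1, or 3 of 10 windows, against 7.15% of all 32851 windows. All sequences are on the minus strand and read 5′ to 3′ along the gene.
Bhlhe41, chr6:145865559-145865670: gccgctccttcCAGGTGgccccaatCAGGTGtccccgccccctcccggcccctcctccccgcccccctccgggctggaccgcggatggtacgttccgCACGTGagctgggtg
Klf4, chr4:55532632-55532677: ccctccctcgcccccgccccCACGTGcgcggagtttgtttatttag
Runx1, chr16:92826130-92826155: tcacttaagtCACGTGattggcaaga

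The Bhlhe41 stretch also holds 2 matches of CACCTG, the E-box of Zeb factors, read here on the other strand as CAGGTG and in capitals. CACCTG (both strands) was in 2 of the 10 member windows and in 20.2% of all windows. The E-box begins 153 bases upstream of the RefSeq start of Bhlhe41, which is 15 bases upstream of the start in GENCODE M21, and 182 bases upstream of the RefSeq start of Klf4. In Runx1 it begins 71 bases upstream of the RefSeq start of its distal promoter and 4 bases inside the GENCODE gene. The gene with the E-box that rose was Bhlhe41, and Klf4 and Runx1 fell, so genes with this match moved in both directions. Other motifs searched on both strands were the C/EBP motif TTGCNNAA, in 1 member window (Zeb2) and 10.8% of all windows, the RUNX site TGTGGT, in 1 member window (Runx1) and 16.8% of all, and the PU.1 site GAGGAAGT, in 0 member windows and 3.2% of all. A match is a description of the letters and no measure of binding.

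Spi1, on chromosome 2 at 91082390 to 91115756 (coordinates here and below from GENCODE M21, GRCm38), kept nearly the same level. It stood at 337, 327 and 340 CPM in PBS 1 to 3 and at 331, 326 and 321 CPM in NP 1 to 3. The groups overlapped, and the log2 fold change was -0.036 with a 95% interval from -0.10 to 0.032 (limma adjusted p = 0.377). The interval allows a fall of at most 6.96% and a rise of at most 2.26%. Of the ETS relatives of PU.1, Spic, a factor of red pulp macrophages, was near 1.2 CPM and did not pass (log2 fold change -0.070, limma adjusted p = 0.764), and Spib, a factor of B cells and plasmacytoid dendritic cells, was not tested, with 16 counts over the 6 libraries.

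Runx1, which encodes a runt-domain factor needed for blood cell formation and for early Spi1 expression, lies on chromosome 16 at 92601466 to 92826149. It stood at 76.1, 73.2 and 73.8 CPM in PBS 1 to 3 and at 62.8, 69.1 and 67.0 CPM in NP 1 to 3. Each NP library was below each PBS library, by a small margin for NP 2. Its log2 fold change was -0.17 (SE 0.04, limma adjusted p = 0.00927), the smallest change among the members that passed. The call was lost without PBS 1 (adjusted p = 0.0608), without NP 3 (0.0517), with no low-count filter (0.0662) and without both PBS 2 and PBS 3 (0.0724), each with the value still negative. That last fit, given here and below, has 1 PBS library and 2 residual degrees of freedom: the lone library is assumed to vary like the NP libraries, and the test has less power by construction. Cbfb, the partner that stabilizes RUNX proteins on DNA, also fell (-0.23, SE 0.04), from 169.9 ± 2.702 to 144.8 ± 6.96 CPM (SD, n = 3 each). Runx3, a family member of T cells and dendritic cells, rose from 18.6 ± 1.11 to 27.0 ± 1.74 CPM (log2 fold change 0.53, SE 0.06). Runx2, the factor of bone formation, did not pass (0.044, limma adjusted p = 0.513). The ratio of Runx1 to Runx2 was 4.50 ± 0.170 in PBS and 3.89 ± 0.268 in NP.

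Cebpa, on chromosome 7 at 35119293 to 35121928, encodes the factor that commits progenitors to the granulocyte and monocyte lineage and slows their division. It stood at 219, 210 and 218 CPM in PBS 1 to 3 and at 299.5, 243 and 260 CPM in NP 1 to 3. Each NP library was above each PBS library, with NP 1 highest and NP 2 lowest. The log2 fold change was 0.31 (SE 0.07, limma adjusted p = 0.00489), a rise of 23.6%. Without both PBS 2 and PBS 3 it did not pass (log2 fold change 0.28, adjusted p = 0.108).

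Cebpb, on chromosome 2 at 167688915 to 167690418, encodes the inducible C/EBP factor of activated macrophages, which takes part in Arg1 expression. It stood at 366, 355 and 398 CPM in PBS and at 401, 356 and 362 CPM in NP. The groups overlapped over nearly their whole range, and the log2 fold change was -0.0020 (95% interval -0.12 to 0.12, limma adjusted p = 0.981). Its sign turned under several alternatives, with values that all stayed within 0.05 of 0. In the annotation 312 of its 1504 exonic bases overlap Tmem189 on the opposite strand. Tmem189 had 14045 to 27759 counts per library, about as many as Cebpb with 15162 to 27236, and reads in the shared bases cannot be assigned to either without strand. These counts are not scaled for depth. The same limit holds for the ratio given next and for the level of Cebpb per kilobase. The ratio of Cebpa to Cebpb within a library was 0.598, 0.590 and 0.549 in PBS and 0.748, 0.683 and 0.718 in NP, so that the ranges did not overlap.

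The other C/EBP genes went different ways. Cebpd, an inflammation-induced family member, fell from 24.9 ± 0.616 to 17.1 ± 1.64 CPM (log2 fold change -0.55, SE 0.07). Ddit3, which encodes CHOP, a C/EBP factor of the endoplasmic reticulum and amino acid stress response, rose from 120.1 ± 10.3 to 178 ± 19.0 CPM (0.56, SE 0.08). Cebpg, a partner of stress-induced bZIP factors, did not pass although its libraries did not overlap (0.085, limma adjusted p = 0.0689). It passed without NP 2 (log2 fold change 0.12, adjusted p = 0.0261), and also with upper-quartile factors (0.0496), under the filter of 1 CPM in 3 libraries (0.0482) and with sample quality weights (0.0389).

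Maf, on chromosome 8 at 115682942 to 115707794, had the largest fall among the members. It stood at 95.7, 84.2 and 97.5 CPM in PBS 1 to 3 and at 48.5, 63.0 and 53.5 CPM in NP 1 to 3. All NP libraries were below all PBS libraries, and NP 2 was the highest of the NP libraries. The log2 fold change was -0.76 (SE 0.09, 95% interval -0.96 to -0.56, limma adjusted p = 1.80e-04), a decrease of 40.9%. Of 14478 genes, 1156, Maf included, had a fold change at least as large in either direction. The small MAF genes, which lack an activation domain and pair with NRF2 and BACH factors, rose in all 3 cases: Maff by 0.68 (SE 0.14), from 6.46 ± 0.345 to 10.4 ± 2.05 CPM, and Mafg and Mafk (both named after their values were seen) by 0.11 (SE 0.03) and 0.38 (SE 0.06). The call for Maff was lost without both PBS 2 and PBS 3 (log2 fold change 0.75, adjusted p = 0.0751), and so was that for Mafg (0.155). Mafg also missed the threshold without PBS 2 (0.0796), NP 3 (0.0636) or PBS 2 and NP 2 (0.0729), with library totals in place of TMM scaling (0.0855) and with the replicate block (0.0501). The ratio of Bhlhe41 to Maf was 2.19, 2.41 and 2.18 in PBS and 7.69, 5.35 and 6.42 in NP, so that NP 2 was nearest to the PBS libraries.

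Klf4, on chromosome 4 at 55527143 to 55532466, stood at 75.7, 74.7 and 77.5 CPM in PBS 1 to 3 and at 64.2, 55.9 and 58.0 CPM in NP 1 to 3. The PBS libraries lay close together and the NP libraries all below them, here with NP 2 lowest. The log2 fold change was -0.36 (SE 0.05, limma adjusted p = 4.65e-04), a decrease of 21.9%. Klf2, a relative that restrains inflammatory activation, fell slightly (-0.12, SE 0.04, limma adjusted p = 0.0397). That call was lost in fits without PBS 1, PBS 3, NP 1, NP 2 or NP 3 (adjusted p = 0.0958 to 0.223), with the replicate block (0.0931) and with no low-count filter (0.223). It was also lost with a library number covariate (0.0528), which set PBS 2 and NP 2 (numbers 13 and 12) apart from the other libraries. Without both PBS 2 and PBS 3 the log2 fold change of Klf2 was -0.18. Klf6, an abundant and inducible family member of macrophages, rose from 490.4 ± 3.43 to 580 ± 24.7 CPM (0.24, SE 0.04). Klf10, a gene induced by TGF-beta and named after its values were seen, rose (0.20, SE 0.04), a call lost without both PBS 2 and PBS 3 (adjusted p = 0.0663).

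Zeb2, on chromosome 2 at 44983632 to 45117395, had the highest CPM of the members. It stood at 781, 820 and 767 CPM in PBS and at 794, 738 and 740 CPM in NP. The groups overlapped through NP 1, and the log2 fold change was -0.061 (95% interval -0.15 to 0.029, limma adjusted p = 0.257). Its antisense gene Zeb2os, which shares 653 of 19942 exonic bases with it, had 1486 counts over PBS and 1902 over NP, against 34956 to 53977 counts of Zeb2 in each library. These counts are not scaled for depth, and each NP library was deeper than each PBS library, so they show no change of Zeb2os. Zeb1, the other Zeb gene, was near 1 CPM and did not pass (-0.24, limma adjusted p = 0.425).

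Bhlhe40, on chromosome 6 at 108660629 to 108666925, stood at 317, 338 and 337 CPM in PBS 1 to 3 and at 375, 321 and 348 CPM in NP 1 to 3. NP 1 and NP 3 were above the PBS libraries and NP 2 was within them. The log2 fold change was 0.072 (95% interval -0.051 to 0.19, limma adjusted p = 0.326). Without NP 2 it passed, with a log2 fold change of 0.14 (adjusted p = 0.0438), and also without PBS 2 and NP 2 (0.15, adjusted p = 0.0426).

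Bhlhe41, on the same chromosome at 145858243 to 145865558, stood at 210, 203 and 212 CPM in PBS 1 to 3 and at 373, 337 and 344 CPM in NP 1 to 3. All NP libraries were far above all PBS libraries, and the gap between the groups was wider than the spread within either. The log2 fold change was 0.75 (SE 0.04, 95% interval 0.66 to 0.85, limma adjusted p = 7.05e-06), a rise of 68.3%, and 1179 of 14478 genes, itself included, had a fold change at least as large. A provisional gene model on the opposite strand, Gm43909, shares 1280 of its 6720 exonic bases and had 572 counts over PBS and 1223 over NP, few beside the 8654 to 25345 counts of Bhlhe41 in each library. The counts are not scaled for depth, which was greater in NP, so the 2 sums overstate any rise of Gm43909. The ratio of Bhlhe41 to Bhlhe40 was 0.663, 0.600 and 0.631 in PBS and 0.993, 1.05 and 0.988 in NP. The paralogue that had fewer reads in each PBS library thus reached about the same number in NP.

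**Figure D2:**
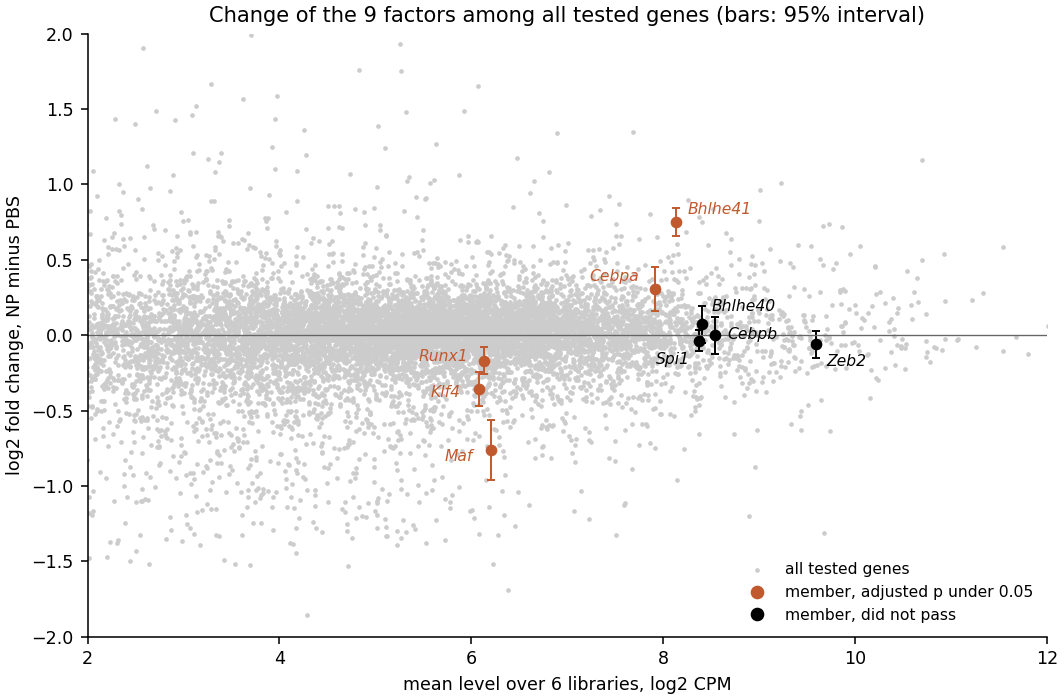
Log2 fold change (NP minus PBS) against mean level (log2 CPM) for all tested genes in grey and the 9 factors with 95% intervals, in orange where adjusted p was under 0.05 and in black where it was not; genes beyond the axes are not drawn. Bhlhe41 (0.75) and Maf (-0.76) lie farthest from zero among the 9, and the intervals of Spi1, Cebpb, Zeb2 and Bhlhe40 include zero.

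The ratios within a library do not depend on the scaling between libraries. Of 6 ratios computed, 5 did not overlap between the groups, those of Bhlhe41 to Bhlhe40, Cebpa to Cebpb, Klf4 to Klf2, Runx1 to Runx2 and Bhlhe41 to Maf. Each had an exact permutation p of 0.1 (two-sided, 0.12 adjusted over the 6), which is the smallest that 3 against 3 libraries allow, so a p under the threshold was out of reach. Over all tested genes 53.3% had groups that did not overlap, a share for single genes. No such share was computed for ratios. The log2 differences (NP minus PBS) were 0.68 for Bhlhe41 to Bhlhe40, 0.31 for Cebpa to Cebpb, -0.24 for Klf4 to Klf2, -0.21 for Runx1 to Runx2 and 1.51 for Bhlhe41 to Maf. Bhlhe41 and Maf are the members with the largest rise and the largest fall. The ratio of that pair therefore restates their fold changes. Each other ratio likewise follows from the fold changes of its own genes, so no ratio is a separate result. The ratio of Zeb2 to Zeb1 overlapped (exact permutation p = 0.5).

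**Figure D3:**
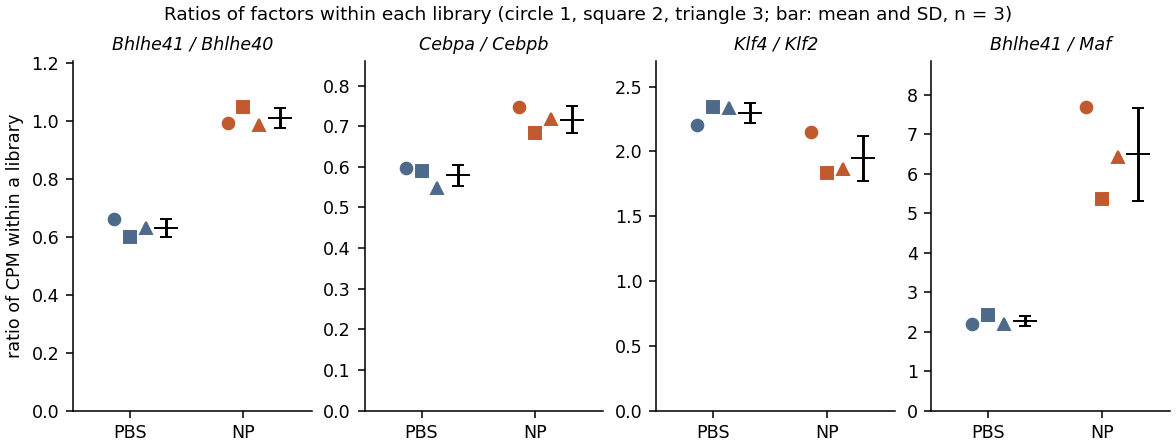
Ratio of CPM of factor pairs within each of the 3 PBS and 3 NP libraries, on axes that start at 0. Symbols mark the replicate number and bars the mean with its SD. Bhlhe41 to Bhlhe40 went from 0.631 to 1.01, Cebpa to Cebpb from 0.579 to 0.716, Klf4 to Klf2 from 2.29 to 1.95 and Bhlhe41 to Maf from 2.26 to 6.49 in the mean.

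Levels of different genes were compared per kilobase of annotated exon. In PBS the order of CPM per kilobase was Cebpb (248 ± 14.7), Spi1 (124 ± 2.47), Cebpa (81.8 ± 1.93), Bhlhe40 (70.2 ± 2.57), Zeb2 (39.6 ± 1.36), Bhlhe41 (31.0 ± 0.730), Klf4 (24.9 ± 0.4502), Maf (11.2 ± 0.875) and Runx1 (6.19 ± 0.126), as mean ± SD with n = 3. Neighbours in this order did not overlap between libraries. In NP the order was the same with 1 exchange: Bhlhe41, at 52.2 ± 2.84 CPM per kilobase, stood above Zeb2, at 37.97 ± 1.59. Maf at 6.67 ± 0.896 came near Runx1 at 5.51 ± 0.270, with the lowest Maf library (5.88) just above the highest Runx1 library (5.75). The lengths count all annotated exons (19942 bases and 29 transcripts for Zeb2, 12025 bases for Runx1), so genes with many exons outside the main transcript rank too low.

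**Figure D4:**
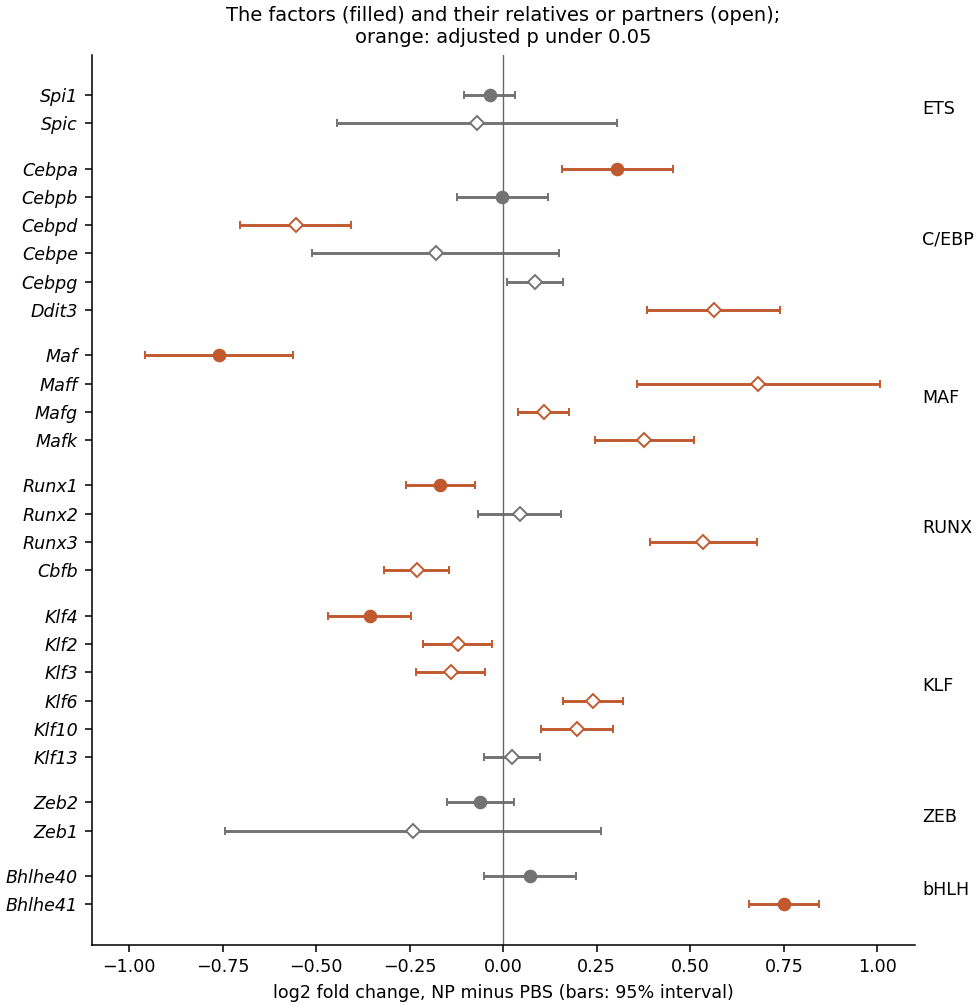
Log2 fold change (NP minus PBS) with 95% intervals for the 9 factors (filled circles) and their tested relatives or partners (open diamonds), by family, in orange where adjusted p was under 0.05. Within the MAF group Maf was negative and the 3 small MAF genes positive, and within the RUNX group Runx1 and Cbfb were negative and Runx3 positive.

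Among 17 tested relatives and partners, 7 rose, 4 fell and 6 did not pass, with a median log2 fold change of 0.044. The share that passed, 64.7%, stands beside 41.2% of all tested genes and 55.4% of those with a mean of at least 50 CPM. Without both PBS 2 and PBS 3, 4 rose and 2 fell, and 2 fell in fits without PBS 3, NP 1, NP 2 or NP 3 or with no low-count filter. A wider list of myeloid transcription factors had 35 tested genes, of which 7 rose and 15 fell (median -0.14), or 62.9% called against the same 41.2% and 55.4%, so the count is not read as a result about these factors. The number that rose was 4 without PBS 1 or without PBS 2, 2 without NP 3 and 3 without both PBS 2 and PBS 3. The largest changes at 5 CPM or more were decreases, in Irf4, a factor induced by IL-4 (-0.64, SE 0.10), Jdp2, a repressor of the AP-1 family (-0.58, SE 0.07), the E protein gene Tcf4 (-0.58, SE 0.05) and the ETS gene Ets2 (-0.53, SE 0.05). Irf8, which with PU.1 directs the monocyte lineage, was slightly higher, from 134.8 ± 2.10 to 143 ± 1.40 CPM (0.088, limma adjusted p = 0.0355). The call for Irf8 was lost without PBS 2 (adjusted p = 0.125), without NP 3 (0.0609) and without PBS 2 and NP 2 (0.185). It was also lost with library totals in place of TMM scaling (0.149), with the replicate block (0.105) and with the covariate that marks PBS 2 and NP 2 (0.0550). Without PBS 2 and PBS 3 its log2 fold change was 0.083.

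Genes known as direct targets of PU.1, RUNX1 or C/EBP in myeloid cells fell in 11 of 19 tested members and rose in 2, with a median log2 fold change of -0.17, while Spi1 itself did not pass. Called were 68.4% of this list, against 41.2% of all tested genes (21.4% lower) and 55.4% of those with a mean of at least 50 CPM. All macrophage markers used above except Mertk are also in this list, so the counts of both lists overlap. Without NP 3, 7 fell and 1 rose, and 1 rose without PBS 2, without both PBS 2 and PBS 3, or with library totals in place of TMM scaling. The largest changes were in Csf2rb, the shared receptor chain for GM-CSF, IL-3 and IL-5, which rose from 379 ± 15.6 to 641 ± 58.2 CPM (0.76, SE 0.06), and in Adgre1, Ncf1, a subunit of the phagocyte NADPH oxidase, and Tlr4, which fell by 0.65, 0.63 and 0.61 on the log2 scale. Csf1r, the CSF1 receptor, had a value of -0.59 (SE 0.05).

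Of 5 genes reported to need Klf4 in alternative activation, 2 fell and 0 rose, with a median log2 fold change of -0.50. Called were 40.0% of this list, against 41.2% of all tested genes and 55.4% of those with a mean of at least 50 CPM. Those that fell were the mannose receptor gene Mrc1 (-1.32, SE 0.06) and Arg1 (-0.50, SE 0.14, limma adjusted p = 0.0172). For Arg1 the fits without NP 2 (adjusted p = 0.0506), NP 3 (0.108) or PBS 2 (0.0673), without both PBS 2 and PBS 3 (0.178) and with no low-count filter (0.0542) did not pass. The 3 that did not pass were Retnla (-0.57, limma adjusted p = 0.0578), Chil3 (-0.15, limma adjusted p = 0.601) and Pparg (0.14, limma adjusted p = 0.212). Retnla passed with sample quality weights (adjusted p = 0.0125), in the fit that left out PBS 1 (0.0278), in that leaving out PBS 2 and NP 2 (0.0492) and with library totals in place of TMM scaling (0.0473), and Pparg passed without PBS 3 (0.0414). Of 3 genes linked to macrophage self-renewal, Klf4 and Klf2 fell, and Myc, a driver of growth and division, did not pass (log2 fold change -0.020, 95% interval -0.12 to 0.076, limma adjusted p = 0.737). Klf4 is itself a member, and the 66.7% called of these 3 genes stands beside the same 41.2% and 55.4%. In the fits where Klf2 missed the threshold, Klf4 was the only gene of this list that fell.

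Clock genes, on which Bhlhe40 and Bhlhe41 act as repressors, rose in 5 of 14 tested members and fell in 3, with a median log2 fold change of -0.012. The share called, 57.1%, stands beside 41.2% of all tested genes and 55.4% of those with a mean of at least 50 CPM. Most of the clock genes lie below that level, so neither share is a matched background. The count is not read as a result about these genes. Dbp, an output gene of the clock whose transcription is driven through E-boxes, fell from 8.24 ± 0.383 to 3.88 ± 0.166 CPM (-1.09, SE 0.08). Per3, a period gene, fell from 6.70 ± 0.163 to 3.78 ± 0.192 CPM (-0.83, SE 0.08), and Tef, a relative of Dbp, fell by 0.38 (SE 0.04). Npas2, a partner of the activator Bmal1, rose from 4.93 ± 0.704 to 7.97 ± 0.475 CPM (0.70, SE 0.10). Per1 (0.094, limma adjusted p = 0.317) and Nr1d1 (-0.078, limma adjusted p = 0.586), classic E-box targets, did not pass. In the RefSeq promoter windows CACGTG was found for Per1 but not for Dbp or Nr1d1. Those windows hold only the bases next to each start. The number of clock genes that rose was 1 without NP 3, 2 without PBS 1 or NP 1, and 3 without PBS 2 or PBS 3. It was 2 with library totals in place of TMM scaling. With the replicate block, with the covariate that marks PBS 2 and NP 2 or with no low-count filter it was 3.

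Of 6 genes known to be repressed by Zeb factors, 3 had enough counts to be tested. Of these, 2 rose and 1 fell, with a median log2 fold change of 0.18, while Zeb2 did not pass. All 3 were called, against 41.2% of all tested genes and 55.4% of those with a mean of at least 50 CPM. With so few genes this share is not read as a result about them. Cdh1, the E-cadherin gene, which IL-4 induces in macrophages, fell from 49.9 ± 2.16 to 33.9 ± 4.01 CPM (-0.56, SE 0.08). Id2, an inhibitor of E proteins, was higher (0.18, limma adjusted p = 0.0287), and so was Id3 (1.33, limma adjusted p = 0.0235), at 1.37 ± 0.308 CPM in PBS and 3.56 ± 1.64 CPM in NP. Each of these calls was lost in fits without PBS 1, PBS 2, PBS 3, NP 1 or NP 3, with adjusted p from 0.0506 to 0.116 over both genes, and without both PBS 2 and PBS 3 (0.126 for Id2 and 0.226 for Id3). Library totals in place of TMM scaling (0.0615 for Id2) and no low-count filter (0.0549 for Id3) also ended a call.

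**Figure D5:**
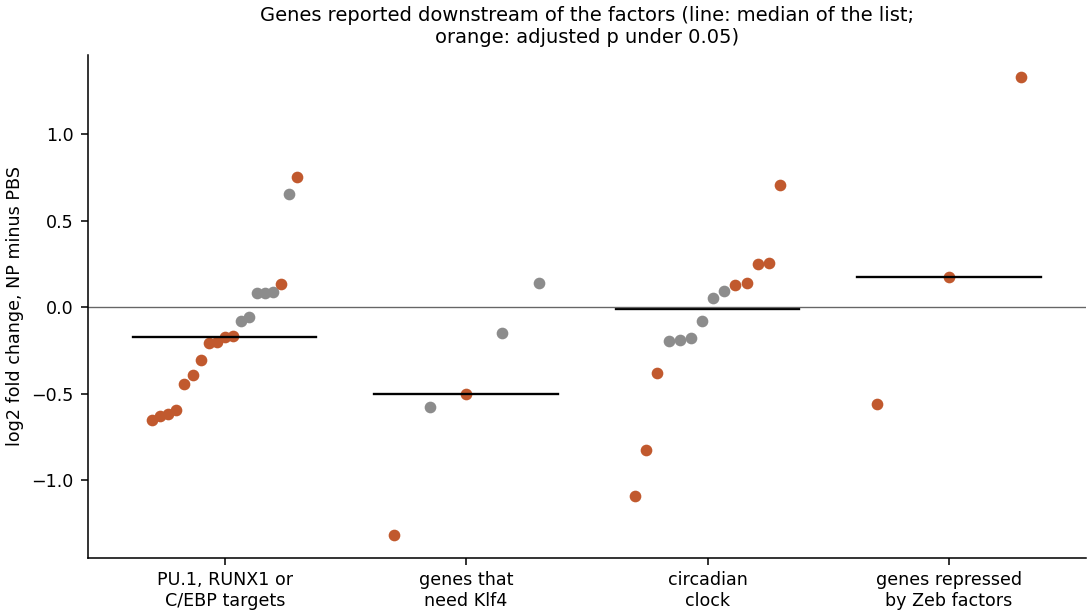
Log2 fold change (NP minus PBS) of the tested genes in 4 lists of genes reported downstream of the factors, each point a gene, in orange where adjusted p was under 0.05, with the median of each list as a line. The list of PU.1, RUNX1 or C/EBP targets lies mostly below zero (median -0.17), and the clock list spreads on both sides (median -0.012).

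The genes with the pattern most like each member were sought among 9617 others by the root mean square distance of log2 CPM, centred on each gene's mean over the 6 libraries. For Maf they were Lacc1, an enzyme gene of macrophages (distance 0.0306), and Smc2, a condensin subunit (0.0375). For Bhlhe41 they were Emc1, of the endoplasmic reticulum membrane complex (0.0318), and Lims2 (0.0324). Klf4 was nearest to Aph1b, a gamma-secretase subunit (0.0355), and Secisbp2l (0.037), and Cebpa to Sde2 (0.0244) and the integrin gene Itga5 (0.0279). Runx1 was nearest to G3bp1, a stress granule protein gene (0.00902), and the kinase gene Btk (0.012). The members that did not pass had neighbours at distances of 0.00873 to 0.0252: Txlna and Washc5 for Spi1, B3galt6 and Slc30a4 for Cebpb, Peli1 and Extl2 for Zeb2, and Peli3 and Bloc1s5 for Bhlhe40. With 6 libraries and many genes that differ between the groups, such closeness is a description only.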

How the data were processed

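The data are poly(A) RNA sequencing of 6 libraries, 3 from cells given nanoparticles (NP) and 3 from cells given PBS. The authors deposited gene-level expected counts, already rounded to whole numbers and not scaled for depth, per the file name and the values. Among the tools in the submitters' processing notes are RSEM 1.3.3, STAR 2.7.8a and cutadapt 2.3, for quality reports FastQC 0.11.8 and MultiQC 1.7, and the build is GRCm38. How strand was handled, and which annotation was used, is not given in the sources used here. Hence reads in bases that a gene shares with an antisense partner cannot be told apart. RSEM divides reads that match several genes. The table held 55487 gene rows and 4 reporter construct rows with 0 counts, which were left out.

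The quoted, space-separated layout could not be read by the unit check. The unit therefore rests on the table's name and its whole-number values, and the test was limma voom, the fallback of the design for that case. It was run with limma 3.58.1 in R 4.3.3, on group alone over all 6 libraries, with 4 residual degrees of freedom, trimmed-mean (TMM) scaling written out in R (factors 0.979 to 1.02) and an offset of 0.5 counts. Genes needed 0.171 CPM (10 counts at the median depth) in 3 libraries and 15 counts in all. CPM (counts scaled to a library size of 1e+06) used the TMM-scaled totals, except in sums over marker and receptor genes, which used plain totals. P-values were Benjamini-Hochberg adjusted over all 14478 tested genes, and "rose" and "fell" mean an adjusted p under 0.05. Before use the fit was run on data simulated from the PBS means, with known changes that were all rises. The simulated spread was a fixed setting and was not taken from these libraries. The run checked the code and is no measure of error among the calls given here. Levels per kilobase use all annotated exons of a gene in GENCODE M21 (GRCm38), which matched 55227 of the gene identifiers.

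Some listed genes are not reported here. The 9 members and the gene lists were chosen with earlier results of these data known. Named were the members, a fixed panel of related genes, and in each list up to 4 genes past the threshold with the largest change and a mean of at least 5 CPM. Genes outside this rule are said to be named after their values were seen. Alternatives were limma-trend, other scalings, other filters, sample quality weights, a replicate block, a library number covariate, and fits without libraries. The library number covariate set PBS 2 (number 13) and NP 2 (12) apart from the other libraries, numbered 4 to 8. DESeq2 and edgeR were not used.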

Additional observations from a re-analysis of the deposited data

How the results depend on the processing

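The fold changes of named genes and the counts of called genes were refitted under 17 alternatives (16 for Zeb1, which the filter of 1 CPM in 3 libraries removes). Ratios, levels per kilobase, nearest genes, list medians, marker sums and motif counts were not. Maf (log2 fold changes -0.93 to -0.66), Klf4 (-0.41 to -0.30) and Bhlhe41 (0.72 to 0.79) passed in all 17, and Spi1 and Zeb2 in 0. With PBS 1 as the only PBS library, 3 members passed (1 higher), as did 2972 genes in all and 36 related or target genes, against 5, 5964 and 58 in the main fit, and Cebpa (0.28) and Runx1 (-0.21) did not pass. Runx1 also missed without the low-count filter (-0.15), and its values with 1 library left out ran from -0.19 to -0.12. Bhlhe40 passed without PBS 2 and NP 2 (0.15), and ran from 0.026 to 0.14 with 1 library left out. The sign for Cebpb turned with median-ratio size factors (0.0010), without the low-count filter (0.020) and with PBS 1 alone (0.019), and ran from -0.044 to 0.047 with 1 library left out. Related or target genes called ran from 36 (without NP 3) to 55 with 1 library left out. Spic ran from -0.14 to 0.053, and Myc from -0.035 to 0.031 with 1 library left out, with 8.0e-05 without the filter, 0.0014 with sample quality weights and 0.011 with PBS 1 alone. Chil3 was 0.17 without PBS 2 and NP 2 and ran from -0.40 to 0.11 with 1 library left out, and Stat6 was -0.011 with library totals alone. The cause was not tested. The count of genes changed at least 2-fold was 582, and 1988 without PBS 1, 298 without NP 1, 353 without NP 3 and 329 under the filter of 1 CPM in 3 libraries. With the replicate block 5 members passed, Runx1 with -0.17, and 5022 genes in all. Deviations from the group mean had correlations of -0.15, -0.25 and -0.23 (9928 genes) between libraries of the same replicate number. Those between different numbers ran from -0.11 to 0.34. Such deviations cancel within each group of 3, so these correlations cannot decide whether the numbers pair the samples.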

Other observations

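Several further factors of blood cell identity were lower in NP cells, named after their values were seen. Fli1, an ETS factor of early blood cells, fell from 74.7 ± 1.05 to 58.8 ± 1.88 CPM (log2 fold change -0.35, SE 0.03), and Ikzf1, which encodes Ikaros, from 67.9 ± 1.84 to 53.9 ± 1.88 CPM (-0.34, SE 0.04). The E protein gene Tcf3 had a value of -0.24 (SE 0.04), and Tfec, a macrophage member of the MiT family, of -0.52 (SE 0.06). Tal1, another factor of early blood formation, rose from 21.5 ± 0.0442 to 26.8 ± 0.557 CPM (0.32, SE 0.04), and Nr1h3, the gene of LXR alpha, from 13.1 ± 0.435 to 17.0 ± 0.380 CPM (0.38, SE 0.05). Stat6, which carries the IL-4 signal, did not pass (0.023, limma adjusted p = 0.581).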
